A study of Danio rerio with 6 samples.

Results

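The cytosolic ribosomal protein genes of the zebrafish were followed in RNA-seq libraries of whole embryos at 3 days post fertilisation. The genes were taken by name: every gene of the authors' deposited comparison table whose symbol starts with rpl or rps and a digit, or with rplp, apart from the rps6k kinases. This gave 82 of 31621 genes, of which 74 had an expression value of their own. The csf1ra mutants were csf1ra-/- embryos from a CRISPR/Cas9 knockout, and the wild-type embryos carried no mutation that the labels name; their library names start with TU. The product of csf1ra is a kinase receptor of macrophages, microglia and the yellow pigment cells of the skin. Each genotype had 3 libraries, and all embryos were killed after MS-222 anaesthesia. The labels give 30 embryos without saying whether per genotype or per library, and name neither the clutches nor the altered part of csf1ra. A p-value here therefore reflects only how far these libraries scatter, part of which can be technical.

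Ribosomes make all cytosolic proteins, and each one holds a small and a large subunit, built from ribosomal RNA and from proteins that are mostly present in a single copy. The large subunit carries a stalk, formed by the products of rplp0, rplp1 and rplp2, which brings elongation factors to the ribosome. In vertebrates the transcripts of these genes start with a run of pyrimidines, through which the mTOR pathway controls their translation, and many of the genes carry small nucleolar RNA genes in their introns. In mammals, free large-subunit proteins such as RPL5 and RPL11 bind MDM2 and so raise p53, and mutations of RPS19, RPL35A and other members cause an inherited anaemia.

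Values are in FPKM, which corrects for transcript length and library size. In a library, the gene total was the larger of 2 sums, that of the gene's first-exon events and that of its last-exon events, an event being a transcript structure to which the authors gave an FPKM value. For some genes the 2 sums differed widely. By its first exon rps25 had 507 to 626 FPKM, but by its last exon 1.6 to 3.57 FPKM in all libraries except wild-type replicate 3 (623 FPKM). Comparisons of level between genes are therefore approximate. Fold changes are the mutant minus the wild type on the log2(FPKM + 1) scale. A gene was called at a limma adjusted p under 0.05, with Benjamini-Hochberg adjustment over the 15475 genes tested. Per library, 17291 to 17653 genes were listed. The read depth is unknown, because the files give no read totals. The targeted gene csf1ra was not listed in mutant replicates 1 and 2 and stood at 0.563 FPKM in mutant replicate 3, against 4.54, 4.07 and 3.72 FPKM in wild type (log2 fold change -2.14, SE 0.22, adjusted p = 0.00284). Summed markers of fast muscle were at 11820 to 12430 FPKM in the mutant and 13390 to 15760 in wild type, and those of the exocrine pancreas at 41.5 to 110 FPKM and 13.4 to 29.3. The sums overlapped between the genotypes for liver, lens, erythrocytes and proliferating cells (220 to 270 FPKM in the mutant and 251 to 274 in wild type), and for neurons by a narrow margin (494 to 599 and 449 to 499.9). Over all genes tested 2.42% were called, and no marker of these tissues was. The median log2 fold changes of these marker lists were 0.094, -0.255, -0.038, -0.163 and 0.082, in that order. Such sums can hide single markers without overlap. In the mutant fabp10a of liver and stmn1b and snap25a of neurons were higher, and cryaa and cryba1l1 of lens and mki67 and cdk1 of proliferating cells were lower. Others overlapped, such as apoa2 and fgb of liver, elavl3 of neurons, crygn2 of lens and ccnb1 of proliferating cells. Of all genes tested 22.3% had no overlap, so single markers without overlap do not show a shift of a tissue. Of 6 tested markers of fast muscle 2 were called lower in the mutant, and of 7 tested markers of the exocrine pancreas 5 were called higher. Whether these tissues have a part in any ribosomal protein value was not tested, and in whole embryos fewer cells of a type and less RNA per cell cannot be told apart.

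Ribosomal protein transcripts were abundant in both genotypes. Over all 6 libraries the tested members had a median of 592 FPKM, against 6.22 FPKM over all genes tested, and 41 of the 100 most abundant genes were members. Of 73 tested members, 69 had a mean of at least 100 FPKM, 44 of at least 500 FPKM and 4 of at least 1000 FPKM. In the plot of levels, the middle of the order, between 184 and 906 FPKM at the 10th and 90th percentiles over members, is nearly continuous.

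**Figure D1:**
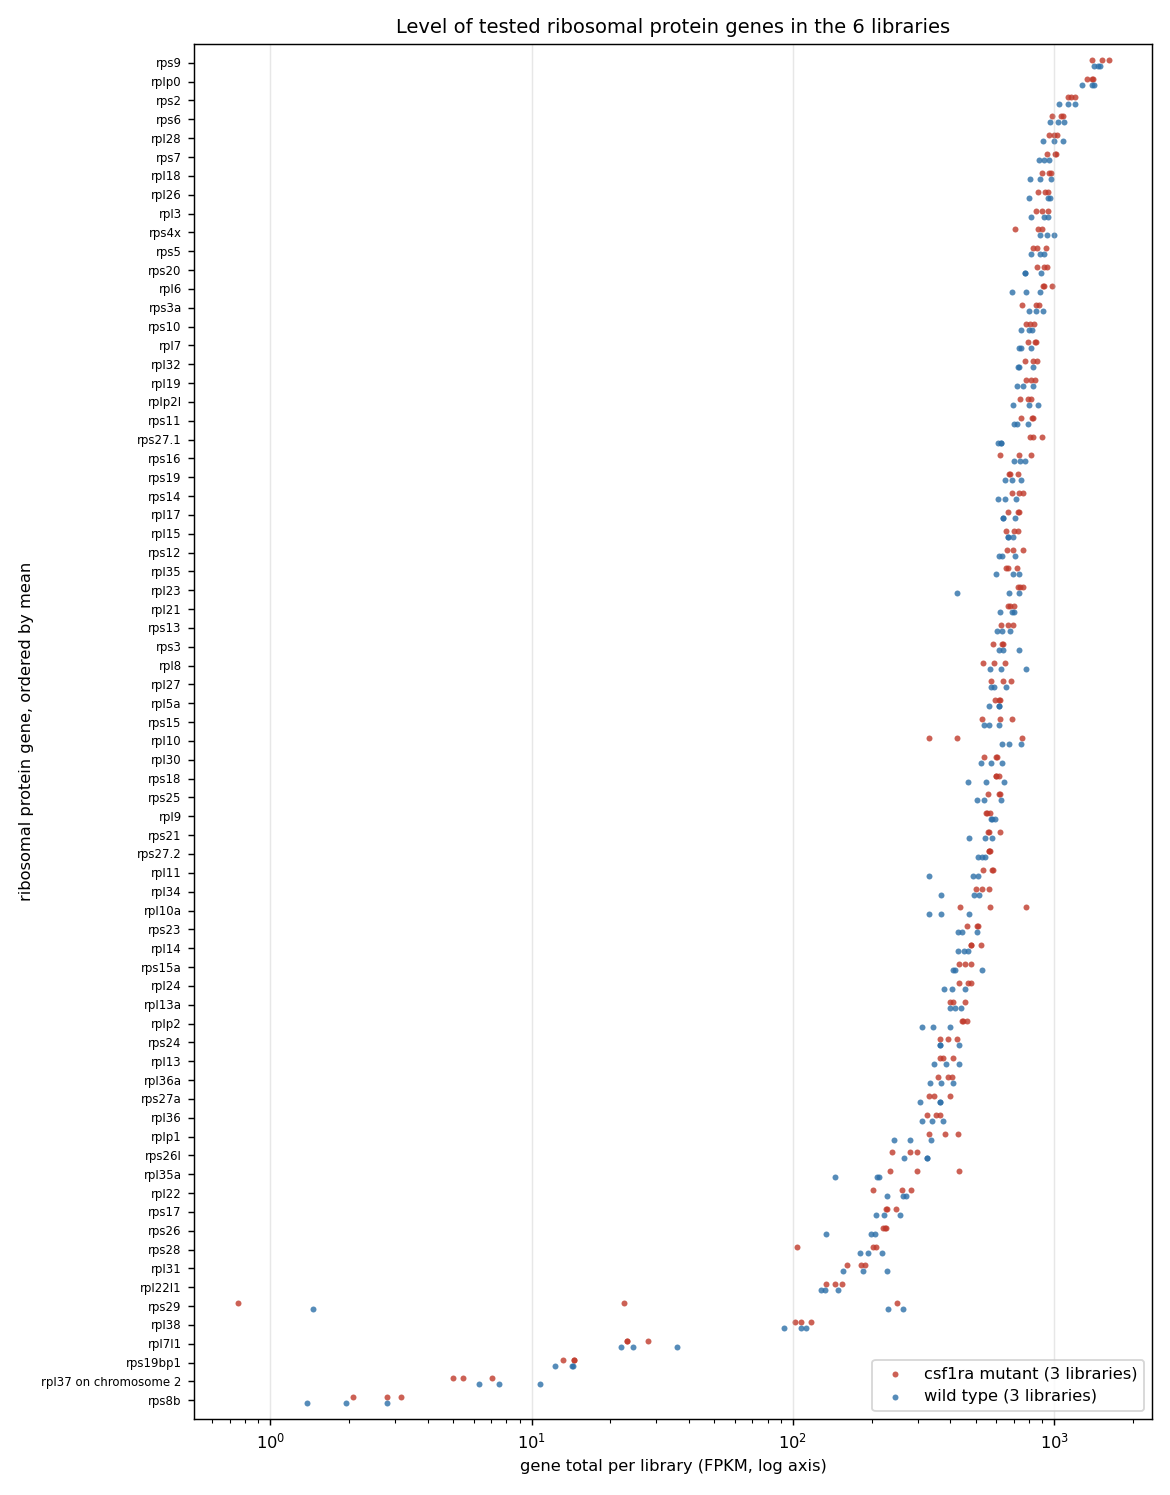
Gene total in FPKM (log axis) of 72 of the 73 tested ribosomal protein genes, ordered by mean, with 1 point for each of the 3 csf1ra mutant (red) and 3 wild-type (blue) libraries. Points of both genotypes lie together for nearly all genes; rps29 is spread from 0.753 to 265 FPKM, and rps27.1 has all red points above all blue ones.

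The most abundant member was rps9, a small-subunit protein gene, at 1513 ± 110 FPKM in the mutant and 1463 ± 42 FPKM in wild type (SD, n = 3 each). The stalk base gene rplp0 followed at 1378 ± 39 and 1364 ± 73 FPKM. Next came rps2, at 1163 ± 33 FPKM in the mutant and 1124 ± 78 in wild type, and rps6, whose product is phosphorylated downstream of mTOR, at 1042 ± 52 and 1031 ± 63 FPKM. The fifth, rpl28, stood at 993 ± 35 FPKM in the mutant and 994 ± 84 in wild type. The log2 fold changes of these 5 genes lay between 0.0023 and 0.05, and none passed the test. Those of rplp0, rps6 and rpl28 turned negative with median-ratio rescaling. The rank of rps9 rests on its first exon: its last exon was at 556, 319 and 598 FPKM in the mutant and 679, 735 and 680 FPKM in wild type, without overlap, and with last-exon events alone its log2 fold change was -0.56 (limma adjusted p = 0.304).

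Of the 5 lowest members, 4 were a second copy or paralogue of another member or encode no subunit. rps8b was at 2.68 ± 0.55 FPKM in the mutant and 2.04 ± 0.71 in wild type, and the rpl37 copy on chromosome 2 at 5.84 ± 1.06 and 8.20 ± 2.29 FPKM. rps19bp1, which encodes a protein that binds RPS19 and is not part of the ribosome, was at 14.1 ± 0.75 FPKM in the mutant and 13.7 ± 1.16 in wild type. rpl7l1, a paralogue of rpl7 whose human product acts in ribosome assembly, was at 24.8 ± 2.7 and 27.5 ± 7.6 FPKM, and the other one, rpl38, a short large-subunit protein gene, at 109 ± 7.5 and 104 ± 10.6 FPKM. The adjusted p of these 5 genes ranged from 0.359 to 0.865.

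As a group, the members were close in level between the genotypes and slightly higher in the mutant on average. No test of the group was run. The 74 genes held 12.2%, 11.7% and 12.3% of the summed FPKM in mutant replicates 1, 2 and 3, and 10.97%, 11.4% and 11.9% in wild-type replicates 1, 2 and 3. The means were 12.1% ± 0.33 in the mutant and 11.4% ± 0.48 in wild type (SD, n = 3 each), with mutant replicate 2 below wild-type replicate 3. The median log2 fold change over the 73 tested members was 0.046, against 0.016 over all genes tested, and 57 of the 73 lay within 0.2 of 0. It was 0.032 for 36 tested genes of the large subunit outside the stalk, 0.05 for 32 of the small subunit and 0.192 for the 4 of the stalk.

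More members were above 0 than below it, 55 against 18, or 75.3% above 0, against 53.2% over all genes tested. The excess was not seen without wild-type replicate 1. This library held the lowest value of 44 of the 73 members and the highest of 0. Its members lay at a median of 0.128 below their 6-library mean on the log2 scale, whereas all genes tested lay at a median of 0.005 above theirs. Without it the members' median was -0.008, with 35 of 73 above 0. The share above 0 also moved with the other libraries. It was 64.4%, 83.6% and 67.1% without mutant replicate 1, 2 or 3, and 75.3% and 82.2% without wild-type replicate 2 or 3. The median stayed above 0 under each of the other alternatives computed for it, at 0.029 with median-ratio rescaling and 0.067 with quantile normalisation.

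**Figure D2:**
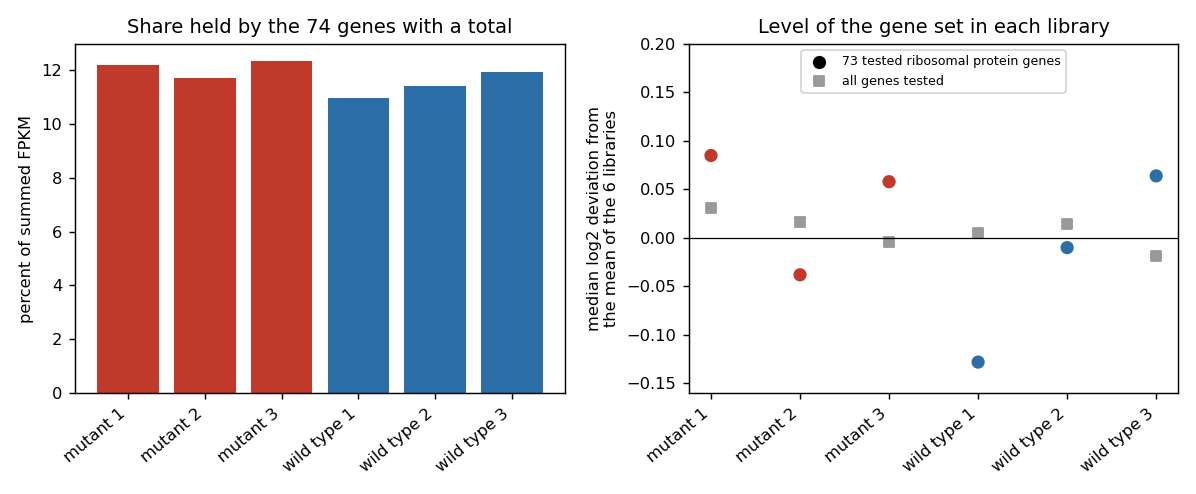
Left, the percent of each library's summed FPKM held by the 74 ribosomal protein genes with a value (bars from 0). Right, for each library, the median over genes of the log2 deviation from the gene's 6-library mean, for the 73 tested members (circles, red for csf1ra mutant and blue for wild type) and for all genes tested (grey squares): wild-type replicate 1 is lowest, at -0.128, while its grey square is at 0.005.

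Between the genotypes, limma called 1 of 73 members (1.37%), where 2.42% of all genes tested were called. At an unadjusted p under 0.05 there were 7 members higher and 0 lower in the mutant, while 15.95% of all genes had such a p. The called gene was rps27.1, which encodes protein S27 of the small subunit, a small zinc-finger protein. It stood at 827, 807 and 899 FPKM in the mutant libraries, against 624, 626 and 610 FPKM in wild type. Every mutant library lay above every wild-type library, and the wild-type values were close to each other. The mutant mean was 136% of the wild-type mean, a log2 fold change of 0.44 (SE 0.07, limma adjusted p = 0.0192).

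The rps27.1 fold change stayed between 0.397 and 0.475 when any 1 library was left out, but the call held only without mutant replicate 3 (adjusted p = 0.0351). Without mutant replicate 1 or 2 the adjusted p was 0.0803 or 0.0639, and without wild-type replicate 1, 2 or 3 it was 0.0774, 0.0924 or 0.0757. It was 0.0722 without limma's trend and robust options. The gene lies on GRCz10 chromosome 19 from 8824335 to 8829646 on the minus strand, with 1 first exon and 1 last exon in the tables.

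The other S27 gene, rps27.2 on chromosome 16, was at 566, 563 and 561 FPKM in the mutant and 511, 543 and 531 FPKM in wild type. These values did not overlap either, but the difference was small (log2 fold change 0.09, SE 0.06, limma adjusted p = 0.501). rps27.1 made up 60.0% ± 1.4 of the summed FPKM of both genes in the mutant and 54.0% ± 0.86 in wild type (SD, n = 3 each), with 58.9% to 61.6% in mutant libraries and 53.5% to 54.98% in wild type. Reads shared between such near copies may be split between them by the authors' estimation, so each single value of a pair is uncertain.

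Genes beside rps27.1 on chromosome 19 were also called. Of 28 other tested genes that start within 1 Mb of it, 3 were called higher and 0 lower in the mutant. They were crabp2b, a retinoic acid binding protein gene 0.23 Mb away (15.8 ± 1.1 FPKM in the mutant and 9.50 ± 0.32 in wild type), ndufv1, a subunit gene of respiratory complex I 0.47 Mb away (142 ± 6.3 and 106 ± 1.1 FPKM), and slc2a3a, a sugar transporter gene 0.94 Mb away (9.93 ± 1.3 and 6.05 ± 0.47 FPKM). Over all of chromosome 19, 35 of 629 tested genes (5.56%) were called, against the 2.42% of all genes. The chromosome carries 7 members, and all 7 log2 fold changes were above 0: rps27.1 had 0.44, rplp1 0.41, rpl11 0.37, rpl14 0.14, rps18 0.14, rpl15 0.04 and rpl30 0.01. Of all tested members 75.3% were above 0, an excess not seen without wild-type replicate 1. The values of rpl15 and rpl30 were close to 0. These signs are those of the main fit, and rpl14, rpl15, rpl30 and rps18 were not among the members followed singly under other settings. Far from rps27.1 lie rpl11, from 44185328 to 44191343, and rpl14, from 48704918 to 48711698. Whether the position on this chromosome has a part in the rps27.1 value was not tested.

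**Figure D3:**
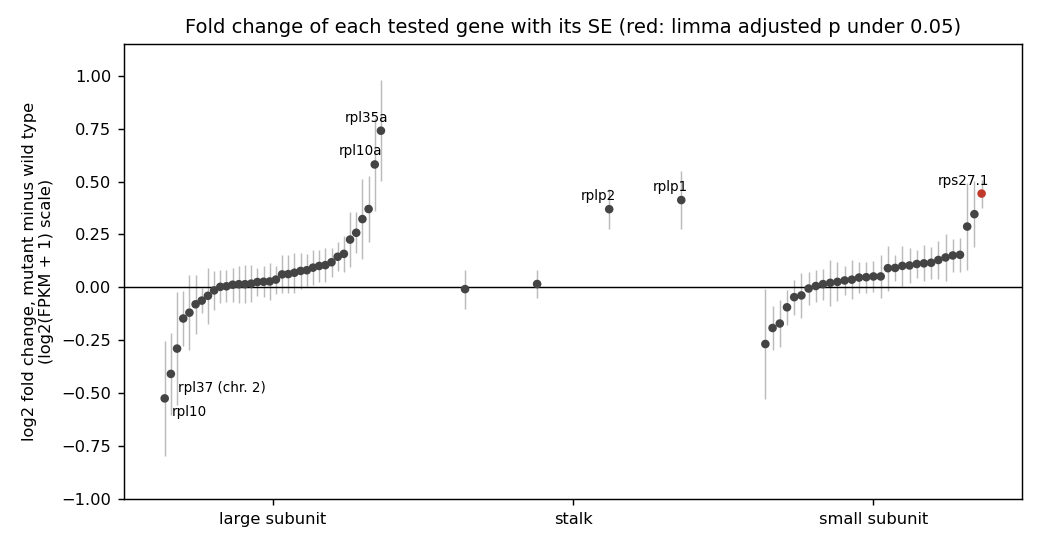
Log2 fold change (mutant minus wild type, log2(FPKM + 1) scale) with its SE for tested genes of the large subunit, the stalk and the small subunit, sorted within each group. Only rps27.1 (red, 0.44) has an adjusted p under 0.05; rps19bp1 and rps29 (-1.29, SE 2.77) are not drawn.

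Among the stalk genes, rplp1 and rplp2 had the larger differences and neither passed the test. rplp2 was at 466, 444 and 449 FPKM in the mutant libraries, against 344, 313 and 399 FPKM in wild type. The genotypes did not overlap (log2 fold change 0.37, SE 0.09, limma adjusted p = 0.106). rplp1 was at 383, 333 and 428 FPKM in the mutant and 244, 280 and 339 FPKM in wild type, with mutant replicate 2 below wild-type replicate 3 (0.41, SE 0.14, adjusted p = 0.205). The base gene rplp0 had 1391, 1335 and 1409 FPKM in the mutant and 1282, 1389 and 1422 FPKM in wild type, and the second P2 gene, rplp2l, averaged 782 ± 41 and 789 ± 84 FPKM. rplp2 made up 36.7% ± 1.1 of the summed FPKM of the 2 P2 genes in the mutant and 30.9% ± 2.6 in wild type.

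**Figure D4:**
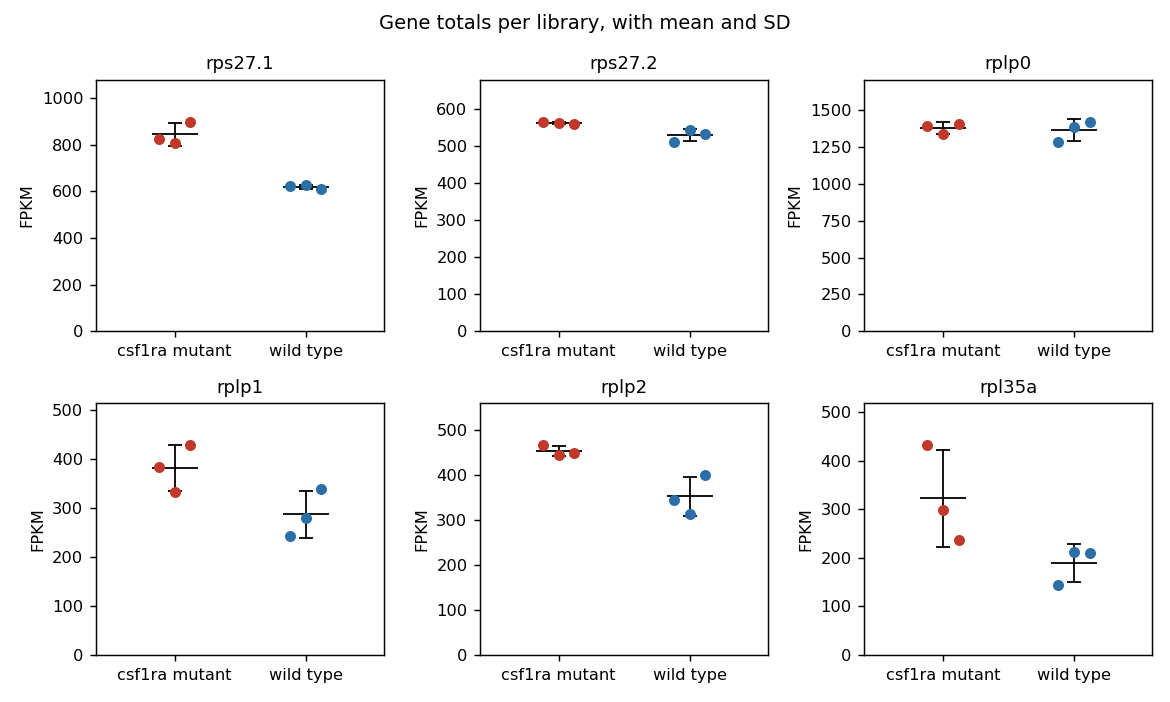
Gene totals in FPKM of 6 ribosomal protein genes, with 1 point per library (red csf1ra mutant, left; blue wild type, right) and the mean and SD of each genotype; all axes start at 0. rps27.1, rps27.2, rplp2 and rpl35a show no overlap, while rplp0 and rplp1 overlap.

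In the large subunit outside the stalk, 0 of 36 tested members were called in either direction, against 2.42% of all genes tested. With that share, 0 calls among so few genes do not show that they are unchanged. The largest positive fold change was that of rpl35a, one of the genes mutated in inherited anaemia, at 432, 299 and 236 FPKM in the mutant and 145, 213 and 211 FPKM in wild type. Each mutant value lay above the wild-type ones, and the mutant values were spread widely (log2 fold change 0.74, SE 0.24, limma adjusted p = 0.197). rpl10a, whose product forms the mobile L1 stalk, had 568, 780 and 436 FPKM in the mutant and 332, 471 and 369 FPKM in wild type. These values overlapped (0.58, SE 0.22, limma adjusted p = 0.262). The main first exon of rpl10a was at 306, 780 and 301 FPKM in the mutant and 280, 307 and 335 FPKM in wild type. With first-exon events alone its log2 fold change was 0.438 (limma adjusted p = 0.601). rpl11 had 580, 535 and 582 FPKM in the mutant and 490, 333 and 511 FPKM in wild type (0.37, SE 0.16, adjusted p = 0.306), without overlap.

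The largest negative fold change of the large subunit was that of rpl10, a protein that joins the subunit late in its assembly. It was at 426, 331 and 750 FPKM in the mutant and 672, 631 and 745 FPKM in wild type, so mutant replicate 3 lay with the wild type (-0.53, SE 0.27, adjusted p = 0.406). Without mutant replicate 3 it was called lower (-0.86, limma adjusted p = 0.0259), which together with rps27.1 made 2 called members in that setting. The rpl10 total rests on first-exon events that differ between libraries. Its last exon was at 6.37, 2.18 and 0.114 FPKM in the mutant and 0.114, 0.106 and 0.125 FPKM in wild type, and was not tested. The level of rpl10 is therefore uncertain.

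Other large-subunit members were close between the genotypes. rpl3, at the peptidyl transferase centre, was at 902 ± 48 FPKM in the mutant and 895 ± 69 in wild type, and rpl5a at 608 ± 15 and 598 ± 29 FPKM. rpl7 stood at 830 ± 28 and 765 ± 43 FPKM, and rpl36a at 387 ± 24 and 371 ± 36 FPKM. rpl22 was at 249 ± 42 FPKM in the mutant and 255 ± 23 in wild type, and its paralogue rpl22l1 at 144 ± 10 and 137 ± 10 FPKM. The share of rpl22l1 in the sum of that pair was 36.9% ± 2.5 in the mutant and 34.9% ± 1.2 in wild type, and these shares overlapped between libraries.

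In the small subunit, 1 of 32 tested members was called higher, rps27.1, and 0 lower. Over all genes tested 1.21% were called higher and 1.2% lower, so these counts show no difference between the subunits. rps19, the gene most often mutated in the inherited anaemia, was at 691 ± 33 FPKM in the mutant and 695 ± 50 in wild type, rps14 at 728 ± 34 and 657 ± 53 FPKM, and rps7 at 988 ± 46 and 915 ± 40 FPKM. rps26 had 221, 228 and 225 FPKM in the mutant and 207, 199 and 134 FPKM in wild type, without overlap (log2 fold change 0.35, SE 0.16, limma adjusted p = 0.342). The rps26 total rests on its first exon. A last exon was listed in mutant replicate 2 alone, at 0.603 FPKM and outside the authors' locus. Its paralogue rps26l had 299, 239 and 280 FPKM in the mutant and 267, 327 and 327 FPKM in wild type. rps4x was at 826 ± 102 FPKM in the mutant and 940 ± 60 in wild type (-0.19, adjusted p = 0.416), and rps28 at 172 ± 59 and 198 ± 20 FPKM, with 104 FPKM in mutant replicate 2.

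rps29 had no stable value in these tables. Its total was 0.753, 251 and 22.5 FPKM in mutant replicates 1, 2 and 3, against 232, 265 and 1.46 FPKM in wild-type replicates 1, 2 and 3. High and low libraries thus occur in both genotypes, and its log2 fold change of -1.29 has an SE of 2.77. Last-exon events of rps29 were listed in mutant replicate 3 alone. The authors' deposited table gave the rps29 transcript an adjusted p of 0.431.

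Over all members, the libraries of the genotypes did not overlap for 9 of 73 (12.3%), where the share was 22.3% of all genes tested. Of the 9, 8 were higher in the mutant (10.96%, against 12.1% of all genes) and 1 lower (1.37%, against 10.2%). The 8 were rpl6, rpl11, rpl14, rpl35a, rplp2, rps26, rps27.1 and rps27.2, and the lower one was rpl9, at 557 ± 11 FPKM in the mutant and 582 ± 12 in wild type (-0.06, SE 0.06, limma adjusted p = 0.658). rpl6 and rpl14, named because they are among these few, were at 931 ± 42 and 782 ± 96 FPKM, and at 496 ± 23 and 448 ± 20 FPKM, each with the mutant first.

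The first-exon events of rpl35a differed between the genotypes more clearly than its total. The tables list 3 first exons for it on GRCz10 chromosome 18, plus strand: exon A from 45784345 to 45784432, exon B from 45784426 to 45784941 and exon C from 45784432 to 45784724. Exon C lies within exon B. Exon A shares only its end, 45784426 to 45784432, with exon B, and only its last base with exon C. How the authors' estimation split the reads can affect the FPKM of each exon, and a change of start site was not tested. Exon A was at 8.77, 8.49 and 9.63 FPKM in the mutant libraries, against 127, 156 and 72.9 FPKM in wild type. It held 2.03%, 2.84% and 4.08% of the first-exon FPKM in the mutant and 87.9%, 73.2% and 34.6% in wild type. In a fit of all first-exon and last-exon events of the series, added after the values were seen, exon A fell (log2 fold change -3.52, SE 0.27, limma adjusted p = 0.00207), and it stayed called without any 1 of the 6 libraries (adjusted p 0.000312 to 0.0276).

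No single other exon was high in all mutant libraries. Exon B held 97.7% and 96.9% of the first-exon FPKM in mutant replicates 1 and 2 and 4.43% in replicate 3, against 5.74%, 10.2% and 14.7% in wild type (adjusted p = 0.512). Exon C held 0.265%, 0.273% and 91.5% in the mutant, against 6.41%, 16.6% and 50.7% in wild type (adjusted p = 0.745). The last-exon event was shared by all libraries, at 429, 299 and 226 FPKM in the mutant and 145, 208 and 209 FPKM in wild type. In that fit 3 of 166 tested events of members were called (1.81%), against 2.32% of all events. The others were the first and last exon of rps27.1, whose FPKM values equal its total.

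**Figure D5:**
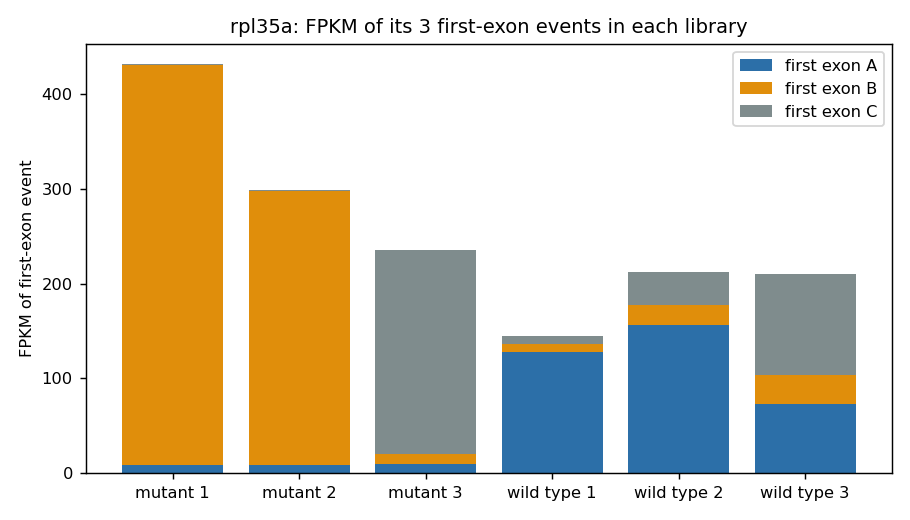
FPKM of the 3 first-exon events of rpl35a in each library, stacked from 0 (exon A blue, B orange, C grey). Exon A is at 8.49 to 9.63 FPKM in the csf1ra mutant libraries and 72.9 to 156 FPKM in wild type; mutant replicates 1 and 2 are mostly exon B and replicate 3 mostly exon C.

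Of 74 members with first-exon events, 35 had more than 1, and for 5 tested members the leading first exon was not the same in all libraries: rpl6, rpl8, rpl10, rpl35a and rps2. For rpl10, on the minus strand of chromosome 23, the leading first exon lay from 19789301 to 19789456 in mutant replicates 1 and 2. It lay from 19789455 to 19789516 in mutant replicate 3 and wild-type replicates 1 and 2. In wild-type replicate 3 it lay from 19827559 to 19827685, outside the authors' locus. Retained-intron events were listed for 9 tested members, and for 3 of them such an event was above 10% of the total in at least 1 library. For rpl8 such an event held 97.2% to 99.4% of the total in the mutant and 93.1% to 98.8% in wild type, so an event with this label is its main listed form in both genotypes. Whether most rpl8 transcripts keep an intron was not tested beyond the label. For rplp1 it was not listed in any mutant library or in wild-type replicate 1, and held 23.7% and 15.0% in wild-type replicates 2 and 3. For rps29 it was listed in mutant replicate 3 alone, at 17.1%.

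The 8 members without a value of their own were rpl4, rpl7a, rpl12, rpl23a, rpl29, rpl39, rps8a and the rpl37 copy on chromosome 21. At each of their loci the tables list transcripts under another gene ID, in 7 cases that of a small nucleolar RNA gene. These rows were abundant, and none was called, against 2.42% of all genes tested. With that share, 0 calls among 8 rows do not show that they are unchanged. Under SNORD16, at the locus of rpl4 (chromosome 18), there were 775, 731 and 777 FPKM in the mutant and 664, 717 and 732 FPKM in wild type. SNORA65 at rpl12 (chromosome 5) had 654, 660 and 719 FPKM in the mutant, above the 636, 627 and 606 FPKM in wild type (log2 fold change 0.12, SE 0.07, limma adjusted p = 0.433). SNORD36 at rpl7a (chromosome 5) had 1171, 420 and 809 FPKM in the mutant and 1123, 1186 and 1238 FPKM in wild type, which overlap (-0.68, SE 0.33, adjusted p = 0.377).

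SNORD42 at rpl23a (chromosome 21) stood at 847 ± 65 FPKM in the mutant and 780 ± 99 in wild type, and SNORA69 at rpl39 (chromosome 14) at 499 ± 31 and 489 ± 66 FPKM. SNORA47 at rps8a (chromosome 2) was at 498 ± 99 and 479 ± 23 FPKM, and SNORD72 at rpl37 (chromosome 21) at 293 ± 38 and 314 ± 46 FPKM. The low rps8b and chromosome 2 rpl37 values are thus those of the less abundant locus of each pair. The rpl29 locus (chromosome 11) was listed under si:ch211-266k22.6, at 192 ± 82 FPKM in the mutant and 268 ± 51 in wild type. With these 8 rows added, the median log2 fold change over 81 genes was 0.043, and the share of summed FPKM was 13.4% ± 0.42 in the mutant and 12.8% ± 0.54 in wild type. rpl5b was listed in 3 libraries and not tested: it had 0.991 FPKM in mutant replicate 3 and 196 and 217 FPKM in wild-type replicates 2 and 3, all from events outside the authors' locus for the gene.

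In the authors' deposited table, whose test runs per transcript and whose columns do not name the direction, members were called more often than in the limma fit. At least 1 transcript had an adjusted p under 0.05 for 52 of 82 members (63.4%), against 30.1% of all genes tested there. Members had a median of 2 tested transcripts in the authors' deposited table, and all genes of 1. Per transcript, 59 of 178 (33.1%) were called in it, against 21.4% of all. rps27.1, rplp0, rplp1, rplp2 and rpl11 were among the members at the smallest adjusted p of the authors' deposited table, 0.000466. The share of all genes at that value was not computed. For rplp0, 1 of 2 tested transcripts was called there, while its gene total had a log2 fold change of 0.02 (limma adjusted p = 0.935). A value per transcript and a gene total are unlike measures, so the size of the difference behind that adjusted p is not known. rpl35a had a smallest adjusted p of 0.00166 in the authors' deposited table, and rpl10 one of 0.687.

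Of 3 tested genes for ribosomal proteins or a ribosome-bound protein outside the name rule, 0 were called (median log2 fold change 0.035). faua, for the small-subunit protein S30, was at 736 ± 19 FPKM in the mutant and 718 ± 23 in wild type, and gnb2l1, also known as rack1, a scaffold on the small subunit, at 955 ± 48 and 1008 ± 61 FPKM. Of 31 tested translation factor genes and other genes with transcripts that start with pyrimidines, 0 were called (median log2 fold change -0.02); the smallest p was that of eef1db, an elongation factor 1 subunit gene, at 65.8 ± 9.0 and 89.3 ± 8.9 FPKM (-0.44, adjusted p = 0.122). The summed FPKM of that list was 7806 to 8326 in the mutant and 7648 to 8901 in wild type. Over all genes tested 2.42% were called, so 0 calls among so few genes do not show that either list is unchanged.

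Of 52 tested ribosome assembly genes 0 were called, against 2.42% of all genes tested (median log2 fold change 0.01, limma with adjustment over all genes). With that share, 0 calls among so few genes do not show that the list is unchanged. ubtf, which encodes a transcription factor of ribosomal RNA genes, was at 41.4 ± 5.6 FPKM in the mutant and 26.1 ± 3.6 in wild type (0.65, SE 0.13, adjusted p = 0.0506). fbl, for the methyltransferase fibrillarin, was at 64.8 ± 2.6 and 51.8 ± 2.4 FPKM (0.32, SE 0.07, adjusted p = 0.065), and riok1, a kinase gene of small-subunit maturation, had a log2 fold change of 0.28 (adjusted p = 0.252). The summed FPKM of the assembly list was 838 to 965 in the mutant and 876 to 908 in wild type. Of 18 tested genes of p53 and its targets 0 were called (median -0.01), which is likewise no sign of an unchanged list. The summed FPKM of the 21 genes of that list with a value was 423, 397 and 435 in the mutant and 442, 457 and 443 in wild type, without overlap. A large part of each sum was ccng1 alone, at 197, 180 and 205 FPKM in the mutant and 220, 235 and 235 FPKM in wild type. The sums therefore do not stand for the list as a whole. The p53 target cdkn1a was at 6.09 ± 0.99 FPKM in the mutant and 8.18 ± 0.44 in wild type (-0.38, adjusted p = 0.186), and ccng1 at 194 ± 13 and 230 ± 8.6 FPKM (-0.24, adjusted p = 0.162), while gadd45ab had a log2 fold change of 0.47 (adjusted p = 0.104).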

How the data were processed

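The submitters' processing notes name GRCz10 as the build and list SAMtools 0.1.18, Cufflinks 2.2.1, DESeq, HTSeq 0.6.1, HISAT2 2.0.1 and Trimmomatic 0.30 without stating what each was used for. The authors deposited FPKM per transcript-structure event and library, per the file headers, and do not list events at 0. The authors deposited raw and adjusted p-values per transcript in a second table. Its 4 value columns do not name the genotype and were not used. Gene totals were tested with limma 3.58.1 in R 4.3.3 (trend, robust; two-sided; genotype as the only term) on log2(FPKM + 1), keeping genes that reached 1 FPKM in 3 or more libraries, with a threshold of 0.05. Missing genes, such as csf1ra in 2 mutant libraries, were set to 0. limma was first run on simulated data whose changes were larger than that of rps27.1. That run does not show how well a change of the rps27.1 size is found. The files used hold no read totals, so no depth-based error could be computed, and exact permutation of 3 against 3 libraries cannot give a p below 0.1. The members and lists were chosen with earlier results of these data known. Named were called members, the 6 largest fold changes each way, the 5 highest and lowest members, duplicates, stalk genes and rps19bp1. Genes studied in anaemia or p53 control, and up to 3 genes of smallest p per other list, were also named. rpl6, rpl8, rpl9, rpl14, rpl15, rpl30, rps18 and rps25 were named outside this rule, after their values were seen. The fit of single events and the rows under other gene IDs were added after the values were seen. Python 3.11.15, pandas 2.3.3 and matplotlib 3.10.9 were used for the rest. Alternatives were other pseudocounts, filters, scalings, single event types, a replicate block and leaving out each library. A few genes that the rule names are not reported here.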

Additional observations from a re-analysis of the deposited data

How the results depend on the processing

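The fold change of rps27.1 kept its direction in all 17 alternatives, and its call was lost in 7. The number of called ribosomal protein genes was 0 without trend and robust options and with the replicate number as a block (where rps27.1 had a limma adjusted p of 0.0907), and 0 to 2 when 1 library was left out. The block brought the calls over all genes to 115, with 53 higher and 62 lower, but same-numbered libraries did not deviate together (correlations -0.027, 0.003 and 0.006), so the numbers were not taken as pairs. Over all genes, 374 were called, 188 higher and 186 lower. There were 232 (114 higher, 118 lower) among genes listed in all 6 libraries, 125 higher with a filter of 5 FPKM, 122 lower without trend and robust options, and 88 to 397 (20 to 218 higher, 33 to 179 lower) without 1 library: 100, 88 and 397 without mutant replicate 1, 2 or 3, and 101, 95 and 103 without wild-type replicate 1, 2 or 3. Among the values of 33 named members under the alternatives, 31 changed sign, in 16 members whose main values were not called. Quantile normalisation gave rps19 0.001. Median-ratio rescaling gave rpl28 -0.015, rpl3 -0.005, rplp0 -0.002 and rps6 -0.002, and last-exon events alone gave rps9 -0.559. Without 1 library, log2 fold changes spanned 0 for large-subunit genes (rpl3 -0.051 to 0.057, rpl5a -0.016 to 0.048, rpl7l1 -0.262 to 0.086, rpl22 -0.14 to 0.101, rpl28 -0.06 to 0.062, rpl36a -0.008 to 0.133, rpl38 -0.015 to 0.126), for the stalk (rplp0 -0.028 to 0.046, rplp2l -0.094 to 0.06), for small-subunit genes (rps2 -0.002 to 0.099, rps6 -0.032 to 0.057, rps9 -0.004 to 0.101, rps19 -0.054 to 0.049, rps28 -0.439 to 0.058, rps29 -3.511 to 0.528) and for rps19bp1 (-0.024 to 0.085). The cause of these changes was not tested.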
